A study of Mus musculus with 4 samples.

Results

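Cullin-RING ligases are modular ubiquitin ligases in which a cullin scaffold holds a catalytic RING protein at one end and an exchangeable substrate adaptor at the other. The genes described here are those whose symbols begin with *Fbxl*, *Fbxo* or *Fbxw*, with *Cul* or *Klhl* and a digit, with *Kbtbd*, or with *Skp1* or *Skp2*, and 91 of the 11598 genes in the deposited table met this rule. They comprised 8 cullins, the adaptor *Skp1a*, 53 F-box genes and 29 Kelch-BTB genes (23 *Klhl* and 6 *Kbtbd*). Of the F-box genes, 15 belonged to the leucine-rich repeat class (with *Skp2*), 8 to the WD40 class and 30 to the remaining *Fbxo* class.

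Ribosome-protected fragments (RPFs), the stretches of mRNA shielded from nuclease by a ribosome, were sequenced from leptotene/zygotene spermatocytes, the germ cells in early meiotic prophase, sorted by FACS from testes at 12 dpp (days post partum). There were 2 libraries from control mice, labelled wild type, and 2 from *Eef1g*-cKO mice, in which a floxed *Eef1g* allele is deleted in male germ cells by *Stra8*-GFPCre. *Eef1g* encodes eEF1G, the scaffold subunit of the complex that recharges the elongation factor eEF1A, and the comparison asks which transcripts carried more or fewer RPFs without it. *Stra8*-GFPCre starts to act in spermatogonia, before meiotic entry, so the deletion precedes the stage that was sorted. Nothing in the labels says how many animals went into a library, and p-values measure only the spread between these libraries. RPF abundance counts ribosomes on an mRNA and does not separate mRNA level from translation.

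In CRL1 (SCF) ligases, CUL1 binds SKP1, which in turn holds an F-box protein that selects the substrate. CUL3 binds its BTB-domain adaptors directly, and in Kelch-BTB proteins the Kelch propeller selects the substrate. CUL4A and CUL4B use DDB1 as their linker, CUL2 and CUL5 use elongins B and C, and CUL7 assembles with FBXW8. The canonical cullins are switched on when NEDD8 is attached to a conserved lysine near the C terminus. In the germline these ligases are known for timing the cell cycle and the steps of meiotic prophase.

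The lysine that accepts NEDD8 is the point shared by the canonical scaffolds, and the coding sequence around it is shown to compare the cullin genes at this site. Only the C-terminal end of each protein was searched for a match to the residues R or Q, I or V, M and K. A match was found there once in each of *Cul1*, *Cul2*, *Cul3*, *Cul4a*, *Cul4b* and *Cul5*, and none in *Cul7* or *Cul9*. A site further from the end of these large proteins could not have been found, so its absence is not concluded. Each stretch below is 27 bases of coding sequence from the GENCODE transcripts of GRCm38, within 1 exon, with the lysine codon in capitals.
Cul1: gtgagaatcatgAAAatgaggaaggtc
Cul3: gtgcgaataatgAAGtctaggaagaag
Cul4a: gtcagaataatgAAAatgaggaagaca
Cul4b: gttcgaattatgAAGatgagaaaaaca
Cul5: atacaaataatgAAAatgagaaagaaa

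The stretches lie at chr6:47524526-47524552 on the plus strand (*Cul1*), chr1:80269237-80269263 on the minus strand (*Cul3*), chr8:13144346-13144372 on the plus strand (*Cul4a*), chrX:38537179-38537205 on the minus strand (*Cul4b*) and chr9:53617975-53618001 on the minus strand (*Cul5*). The *Cul4a* stretch differed from that of *Cul4b*, its closest paralog, at 6 of 27 positions, from *Cul1* at 5, from *Cul5* at 6 and from *Cul3* at 8. Between the whole coding sequences of *Cul4a* and *Cul4b* no run of 28 bases, about the length of a footprint, was identical. Of the 90 members with a coding sequence, 16 shared at least 1 run of 28 bases with another gene and 7 shared over 5% of theirs, led by *Fbxo34* (58.1%), *Kbtbd7* (37.4%, with *Kbtbd6*), *Skp1a* (30.1%, with *Gm12988*) and *Fbxo5* (25.8%). *Cul7* shared 1.69% of its runs with *Cul9*, and *Cul4a* shared 8.67% with other genes, among them *AC165087.1*. Exons of 15 members were overlapped over more than 5% of their length by a gene on the other strand, among them *Klhl21* (20.5%, *Gm9768*) and *Fbxw8* (33.4%, *Gm9754*). How reads were assigned in such places is not stated, and the values of these members are less certain for it.

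Members lay on 20 chromosomes, and only *Cul4b*, *Klhl13* and *Klhl15* were X-linked. Their coding sequences had a median of 1779 bases (489 to 7590) and a median of 59.5% G or C at the third codon position (33.6% to 88.8%). The longest were those of *Cul9* and *Cul7*, the atypical large cullins.

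Depth set the limit of every comparison. Reads on genes numbered 2479504 and 1384282 in control but only 223906 and 407979 in *Eef1g*-cKO, and the median member had 70 and 38 reads against 4 and 7. No member was without a read in control replicate 1, 4 were in control replicate 2, and 18 and 6 were in *Eef1g*-cKO replicates 1 and 2. *Eef1g* itself had 107 and 58 reads in control, against 0 and 4 in *Eef1g*-cKO, in accord with the labels. Of 12 leptotene/zygotene markers all were present, and they summed to 4074 and 3137 reads per 1000000 in control, against 7441 and 6848 in *Eef1g*-cKO, with no marker at 0. Their fold changes were positive for 10 and negative for 2, with 4 called higher and 1 called lower by adjusted p in limma. All 8 spermatogonial markers had negative fold changes, 4 of them called, and their sum was 2465 and 2974 per 1000000 against 433 and 436. Of 8 Sertoli cell markers 7 were in the table, at 1020 and 251 per 1000000 against 237 and 154, where *Clu* gave most of the first value. All 7 had negative fold changes, with none called by adjusted p in limma and 2 called lower by edgeR on reads. *Gata4* was at 0 in both *Eef1g*-cKO libraries. Of 7 pachytene markers 4 were present, at 396 and 294 per 1000000 against 1175 and 1076, nearly all of it *Hist1h1t*. Spermatid markers (3 of 7) summed to 6.45 and 28.9 per 1000000 against 0 and 9.80. Leydig cell markers (3 of 5) summed to 7.26 and 11.6 per 1000000 against 8.93 and 4.90. Peritubular markers (2 of 3) summed to 110 and 59.96 per 1000000 against 13.4 and 51.5, and none of the 3 macrophage markers was in the table. The libraries of the genotypes thus differed in spermatogonial and spermatocyte transcripts beside the members. For the Sertoli cell markers, all 7 fold changes were negative. Their sum in control replicate 2 (251) was close to that in *Eef1g*-cKO replicate 1 (237). The part of any of these transcripts in the changes below was not tested. In sorted cells measured in bulk, fewer cells of a type and less RNA per cell cannot be told apart.

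Together the 91 members took 5104 and 5108 reads per 1000000 in control, against 5837 and 5743 in *Eef1g*-cKO. The 7 members below a mean of 1 FPKM (reads per kilobase of gene per 1000000 reads) were not tested: *Fbxl2*, *Fbxl22*, *Fbxo41*, *Fbxo44*, *Klhl31*, *Klhl42* and *Kbtbd13* had at most 17 reads in a library and at most 1.84 FPKM. Over the 84 tested members the median log2 fold change of FPKM + 1 was -0.15, against -0.23 over all 10475 genes tested, with 34 members above 0. By limma at an absolute log2 fold change above 1 and an unadjusted p under 0.05, 6 members were higher (7.14% of those tested, beside 7.32% of all genes) and 12 were lower (14.3%, beside 16.3%). Of those 12, 7 had no more than 3 reads in either *Eef1g*-cKO library, which held for 19 of the tested members. With p adjusted over all genes, 4 rose (4.76%, beside 2.87%) and 3 fell (3.57%, beside 4.97%), and these 7 genes are the ones called changed below. Both *Eef1g*-cKO libraries lay above both controls for 23 members (27.4%, beside 24.6%) and below both for 32 (38.1%, beside 37.7%). By unadjusted p and by overlap the members' shares were thus near those of all genes in both directions, and the adjusted counts are too small to set the members apart.

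Scaling moved the balance between the directions. When each library was centred on its median, the median over all genes moved from -0.23 to -0.02 and that of the members from -0.15 to 0.06, and the members called by unadjusted p became 9 higher (beside 11% of all genes) and 7 lower (beside 12.8%). By adjusted p they became 6 higher (beside 4.97%) and 3 lower (beside 3.66%). On reads, edgeR's quasi-likelihood test could use 63 members and called 6 higher (beside 8.75%) and 8 lower (beside 11.2%) by adjusted p. DESeq2 on the same reads called 5 higher (beside 5.94%) and 6 lower (beside 5.34%).

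**Figure D1:**
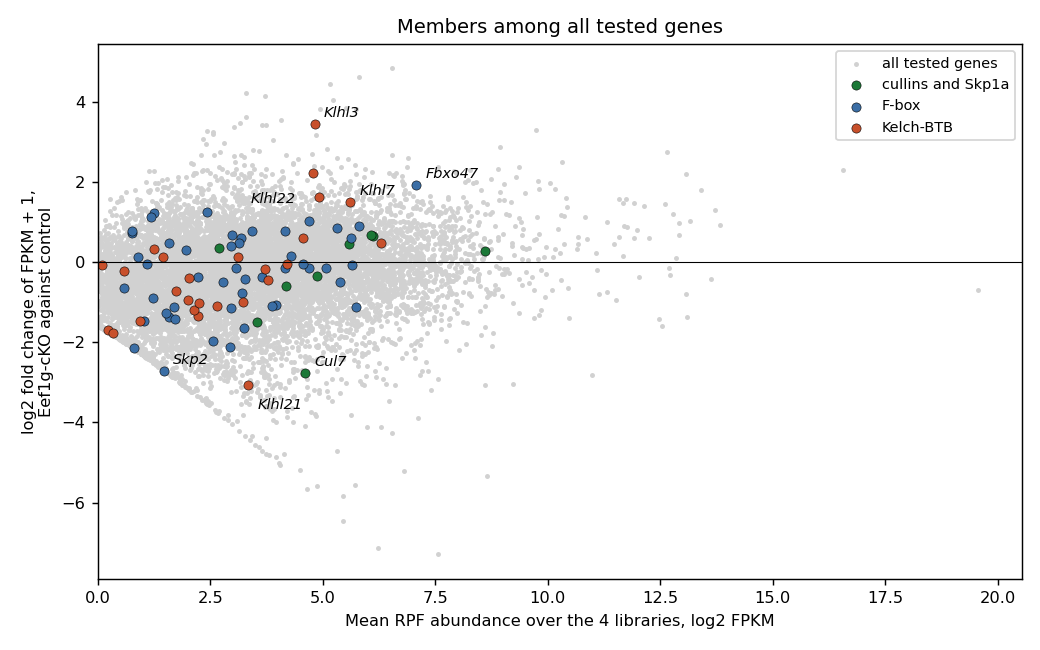
Log2 fold change of FPKM + 1, *Eef1g*-cKO against control, plotted against mean abundance (log2 FPKM over 4 libraries) for all 10475 tested genes in grey and the 84 tested members in colour by family. The 7 members called by adjusted p are named, and the lower edge of the grey cloud is formed by genes that have 0 reads in *Eef1g*-cKO, where *Skp2* lies.

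Among the cullins, *Cul7* fell and no other was called. The RPF abundance of *Cul7* (chr17:46650338-46664364 in the RefSeq annotation of GRCm38), scaffold of the atypical ligase built with FBXW8, was 36.3 and 49.8 FPKM in control (498 and 381 reads), against 4.04 and 7.09 FPKM in *Eef1g*-cKO (5 and 16 reads). Both control libraries stood far above both *Eef1g*-cKO libraries. The log2 fold change was -2.77 (SE 0.37), with an adjusted p of 0.029 in limma, and it lay between -3.11 and -2.19 under all 14 alternative settings, of which 9 kept the adjusted call. The spermatogonial markers, with a median log2 fold change of -1.95 over 8 genes, moved in the direction of *Cul7*, *Skp2* and *Klhl21*. So did the Sertoli cell markers, with a median of -1.43 over 7 genes. Medians were also negative for spermatid (-1.94 over 3 genes, all with at most 3 reads in each *Eef1g*-cKO library) and peritubular markers (-1.37 over 2). For Leydig cell markers the median was -0.28 over 2 genes, 1 of them positive. The leptotene/zygotene and pachytene medians were positive, at 0.85 and 0.23. The part of any marker set in these changes was not tested.

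The partner of *Cul7* had a fold change of the other sign. *Fbxw8* measured 37.0 and 41.2 FPKM in control, against 55.6 and 64.5 in *Eef1g*-cKO, with both *Eef1g*-cKO libraries above both controls. Its log2 fold change was 0.60 (SE 0.22, adjusted p = 0.138 in limma) and was not called. On reads it was 0.71 in edgeR (adjusted p = 0.026) and 0.69 in DESeq2 (adjusted p = 0.111), under the fold threshold. *Cul9*, the paralog of *Cul7*, was low throughout, at 5.96 and 5.16 FPKM in control, against 7.97 and 6.87 in *Eef1g*-cKO, with a log2 fold change of 0.36 (SE 0.39). The difference between the fold changes of these genes was not tested.

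None of the canonical scaffolds was called by adjusted p in limma, by unadjusted p in limma, or by edgeR or DESeq2 on reads. *Cul4b*, the X-linked scaffold of DDB1-based ligases, was the most abundant at 63.1 and 45.3 FPKM in control, against 82.2 and 88.7 in *Eef1g*-cKO, with a log2 fold change of 0.67 (SE 0.24, adjusted p = 0.136 in limma). Its autosomal paralog *Cul4a* measured 29.4 and 35.9 FPKM against 20.9 and 30.4, with overlapping groups and a log2 fold change of -0.35 (SE 0.29). *Cul3*, the scaffold for the Kelch-BTB adaptors, measured 58.5 and 44.2 FPKM against 87.3 and 77.2, again with no overlap, and had a log2 fold change of 0.68 (SE 0.24, adjusted p = 0.122 in limma). By edgeR on reads the adjusted p was 0.028 for *Cul4b* and 0.035 for *Cul3*, and by DESeq2 it was 0.085 and 0.145. Neither *Cul3* nor *Cul4b* reached the fold threshold in any setting, which alone kept them from an edgeR call.

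*Cul1*, the SCF scaffold, measured 34.5 and 46.5 FPKM against 59.4 and 50.5 (log2 fold change 0.44, SE 0.25). *Cul5* measured 22.6 and 20.4 FPKM against 19.3 and 9.77 (log2 fold change -0.61, SE 0.39). *Cul2*, the scaffold of the VHL ligase, measured 16.3 and 16.5 FPKM against 2.15 and 11.2, where the lowest value rested on 2 reads. Its log2 fold change of -1.49 had an SE of 0.67 and was not called (adjusted p = 0.193 in limma), and it rested on which *Eef1g*-cKO library was used, at -0.51 without replicate 1 and at -2.47, where limma called it by adjusted p, without replicate 2. The 8 cullins together took 1148 and 1135 reads per 1000000 in control, against 1130 and 1130 in *Eef1g*-cKO, and their median log2 fold change was 0.01 (0.22 after centring, -0.25 with libraries thinned to the smallest total).

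*Skp1a*, which links CUL1 to every F-box protein, was the most abundant member in all 4 libraries, at 390 and 320 FPKM in control, against 476 and 381 in *Eef1g*-cKO. The groups overlapped and the log2 fold change was 0.27 (SE 0.23, adjusted p = 0.463 in limma).

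**Figure D2:**
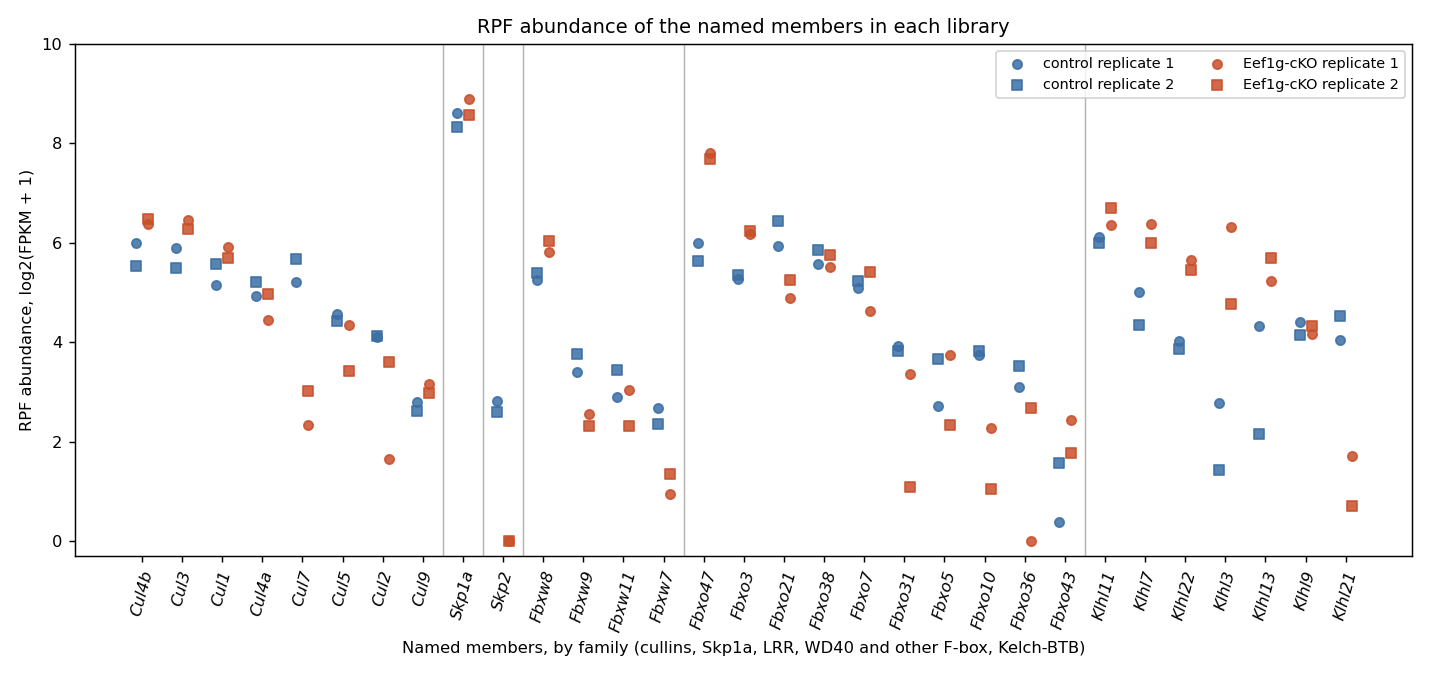
RPF abundance, log2(FPKM + 1), of the 31 named members in each library, ordered by family and within it by mean abundance, with control in blue, *Eef1g*-cKO in orange, circles for replicate 1 and squares for replicate 2. *Skp1a* stands highest, *Fbxo47* and *Klhl3* show wide gaps upward, and *Cul7*, *Skp2* and *Klhl21* show wide gaps downward.

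Of the 13 tested F-box genes with leucine-rich repeats, 1 fell by adjusted p in limma (7.69%, beside 4.97% of all genes) and none rose (beside 2.87%). By unadjusted p in limma 1 was lower (beside 16.3%) and 0 were higher (beside 7.32%). On reads, edgeR and DESeq2 each called 1 higher (beside 8.75% and 5.94%) and 1 lower (beside 11.2% and 5.34%). The median log2 fold change was 0.14. That median had no stable sign, at -0.28 without *Eef1g*-cKO replicate 2 and 0.31 without control replicate 1. The gene that fell was *Skp2* (chr15:9111982-9155425), whose product marks the cyclin-dependent kinase inhibitor p27 for degradation and so promotes entry into S phase. *Skp2* had 51 and 24 reads in control (6.03 and 5.08 FPKM) and no read in *Eef1g*-cKO. A count of 0 allows up to 3 reads in each library, and against that floor *Skp2* was at least 1.83-fold lower. The adjusted p was 0.038 in limma, and the adjusted call was kept in 8 of the 13 alternatives that could test the gene.

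*Fbxl5*, the iron-sensing adaptor that controls iron regulatory proteins, measured 28.8 and 27.4 FPKM in control, against 51.0 and 52.3 in *Eef1g*-cKO. The groups were well apart for a log2 fold change of 0.86 (SE 0.22), under the fold threshold, with an adjusted p of 0.068 in limma. *Fbxl17*, which acts in quality control of BTB-domain dimers, rested on low levels of 1.496 and 0.638 FPKM against 3.68 and 3.75 (log2 fold change 1.22, SE 0.51, adjusted p = 0.170 in limma), and it was called by both edgeR and DESeq2 on reads. *Fbxl5* and *Fbxl17* were chosen for mention after their values were seen.

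Of the 8 WD40-class F-box genes none was called by adjusted p in limma, edgeR or DESeq2. By unadjusted p in limma, 2 were lower (25%, beside 16.3% of all genes) and none higher (beside 7.32%). The median log2 fold change was -0.83, the lowest of the families (-0.49 without control replicate 2). Of the 8, 5 had no more than 3 reads in each of the *Eef1g*-cKO libraries. *Fbxw7*, the adaptor for cyclin E and MYC, had 64 and 27 reads in control, against 1 and 3 in *Eef1g*-cKO. Its levels were 5.43 and 4.11 FPKM against 0.94 and 1.55, a log2 fold change of -1.37 (SE 0.49, adjusted p = 0.127 in limma), and the pooled reads gave a control to *Eef1g*-cKO ratio of 3.72 (95% exact binomial interval 1.40 to 13.9, counting error only).

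*Fbxw9* had 44 and 32 reads against 2 and 3, a pooled ratio of 2.49 (1.02 to 7.87) and a log2 fold change of -1.15 (SE 0.39, adjusted p = 0.115 in limma). *Fbxw11*, which encodes beta-TrCP2, an adaptor that recognises phosphorylated degrons, measured 6.51 and 9.83 FPKM against 7.21 and 3.96, with overlapping groups (log2 fold change -0.50, SE 0.46). The abundant member of this class was *Fbxw8*, described with *Cul7* above.

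In the remaining F-box class, 28 genes were tested, with a median log2 fold change of -0.15 that became 0.07 after centring and lay between -0.30 and -0.03 with 1 library left out. By adjusted p in limma 1 rose (3.57%, beside 2.87% of all genes) and none fell (beside 4.97%). By unadjusted p in limma 2 were higher (7.14%, beside 7.32%) and 5 lower (17.9%, beside 16.3%), near the shares of all genes. On reads, edgeR and DESeq2 called 5 and 3 lower (beside 11.2% and 5.34%) and 1 higher each (beside 8.75% and 5.94%). The gene that rose was *Fbxo47* (chr11:97850311-97884386), a germ cell F-box gene required for homolog synapsis in male meiosis. *Fbxo47* measured 62.6 and 49.0 FPKM in control (261 and 114 reads), against 223 and 206 FPKM in *Eef1g*-cKO (84 and 141 reads). Its means were 55.8 ± 9.64 and 214 ± 12.4 FPKM (SD, n = 2 libraries each).

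*Fbxo47* had the smallest adjusted p of the members, 0.023 in limma, for a log2 fold change of 1.93 (SE 0.22). The fold change lay between 1.76 and 2.15 in all 14 alternatives, the unadjusted call was kept in all of them and the adjusted call in 10. No run of 28 bases of its coding sequence occurred in another gene. For the 12 leptotene/zygotene markers the median log2 fold change was 0.85, in the direction of *Fbxo47*. Of these markers 10 were positive and 2 negative, with 1 called lower by adjusted p in limma. Their part in the change of *Fbxo47* was not tested.

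*Fbxo3* and *Fbxo21* had fold changes of opposite sign that were not called by adjusted p in limma, while edgeR and DESeq2 on reads both called *Fbxo21* lower. *Fbxo3* measured 37.5 and 40.1 FPKM against 71.3 and 74.7 (log2 fold change 0.90, SE 0.21, adjusted p = 0.057 in limma). On reads, the log2 fold change of *Fbxo3* was 0.991 in edgeR (adjusted p = 0.0029) and 0.977 in DESeq2 (adjusted p = 0.0097). Both lay just under the fold threshold. With centred libraries limma called *Fbxo3* higher (log2 fold change 1.11, adjusted p = 0.037). *Fbxo21* measured 60.5 and 85.9 FPKM against 28.6 and 37.0 (log2 fold change -1.12, SE 0.28, adjusted p = 0.062 in limma). In both genes the groups did not overlap. *Fbxo38* was level at 46.6 and 57.0 FPKM against 44.7 and 52.9 (log2 fold change -0.08, or 0.13 after centring).

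The largest negative fold changes of this class were in genes of lower abundance. *Fbxo10*, reported as an adaptor for the anti-apoptotic protein BCL2, had 143 and 84 reads in control, against 4 and 2 in *Eef1g*-cKO. Its levels of 12.4 and 13.1 FPKM against 3.86 and 1.06 gave a log2 fold change of -2.12 (SE 0.54, adjusted p = 0.065 in limma). *Fbxo32*, which encodes the muscle atrophy adaptor atrogin-1 and was picked out after its values were seen, had 50 and 39 reads in control, against 0 in both *Eef1g*-cKO libraries, and was at least 2.33-fold lower against the same floor (adjusted p = 0.058 in limma). Both genes were called by edgeR and by DESeq2 on reads.

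*Fbxo31*, an adaptor linked to cyclin D1 turnover, measured 14.3 and 13.1 FPKM against 9.23 and 1.13 (log2 fold change -1.65, SE 0.76). Its *Eef1g*-cKO libraries were far apart, and the value was -0.52 without *Eef1g*-cKO replicate 2 and -2.79, where limma called it by adjusted p, without *Eef1g*-cKO replicate 1. On all 4 libraries it was called by edgeR on reads but not by limma or DESeq2. *Fbxo36* had 17 and 13 reads against 0 and 2, too few to place (log2 fold change -1.97, SE 0.91, adjusted p = 0.205 in limma).

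The F-box inhibitors of the anaphase-promoting complex rested on few reads. *Fbxo5*, which encodes EMI1, measured 5.58 and 11.6 FPKM against 12.4 and 4.07 on 25, 29, 5 and 3 reads, and its log2 fold change of -0.15 was 0.07 after centring. *Fbxo43*, which encodes the meiotic inhibitor EMI2, had 3, 11, 4 and 4 reads and a log2 fold change of 1.13 (SE 0.62, adjusted p = 0.268 in limma). *Fbxo7*, a regulator of proteasome and mitochondrial quality control, measured 33.1 and 36.8 FPKM against 23.7 and 41.6, with overlapping groups and a log2 fold change of -0.15 (0.07 after centring).

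**Figure D3:**
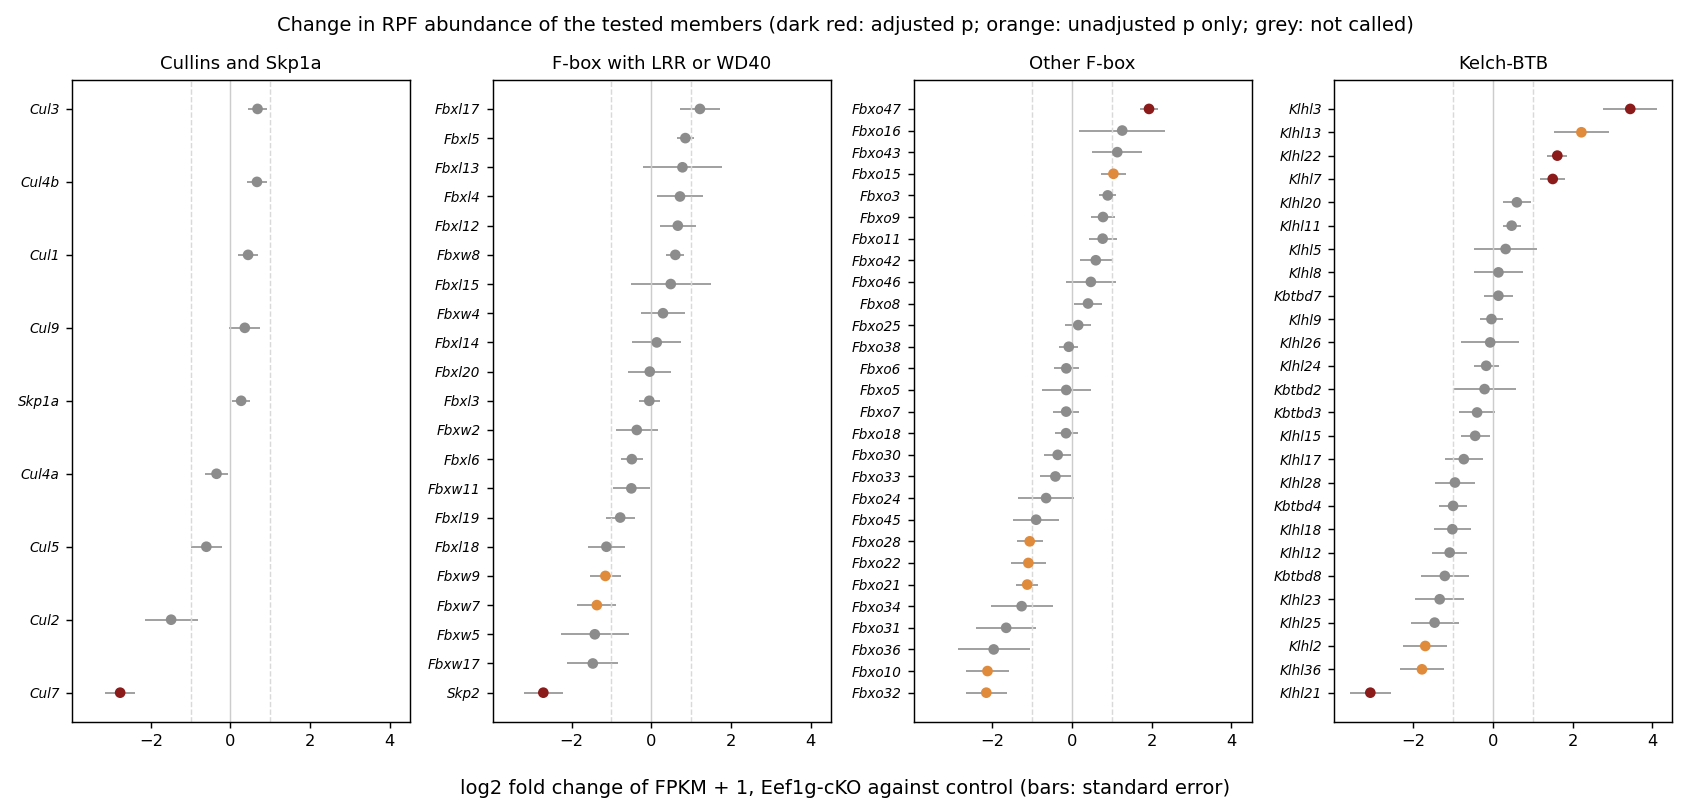
Log2 fold change of FPKM + 1, *Eef1g*-cKO against control, with its standard error for the 84 tested members in 4 panels by family; dashed lines mark the fold threshold of 1, dark red points are called by adjusted p and orange points by unadjusted p only. Called members of the Kelch-BTB panel lie at both ends, from *Klhl3* at 3.45 to *Klhl21* at -3.08, and the canonical cullins lie between the dashed lines except *Cul2*.

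The Kelch-BTB family held the widest spread. Of 26 tested genes, 3 rose and 1 fell by adjusted p, which is 11.5% and 3.85% of the family beside 2.87% and 4.97% of all genes. By unadjusted p in limma 4 were higher (15.4%, beside 7.32% of all genes) and 3 lower (11.5%, beside 16.3%). All 3 of the lower genes had no more than 3 reads in each *Eef1g*-cKO library. On reads, edgeR and DESeq2 called 4 and 3 higher (beside 8.75% and 5.94%) and 1 lower each (beside 11.2% and 5.34%) by adjusted p. The median log2 fold change was -0.30, or -0.12 with the genes at 0 reads placed at their bound. It was 0.14 at a minimum mean of 5 FPKM, -0.72 with a pseudocount of 0.1 FPKM, and -0.50 and -0.45 without *Eef1g*-cKO replicate 1 and 2. None of the 5 tested *Kbtbd* genes was called (by unadjusted p in limma, 0 as well; edgeR and DESeq2 also called 0).

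*Klhl3* (chr13:58000226-58123477), a CUL3 adaptor known for controlling WNK kinases in the kidney, had the largest positive fold change among the tested members. Its levels were 5.84 and 1.69 FPKM in control (31 and 5 reads), against 79.2 and 26.3 FPKM in *Eef1g*-cKO (38 and 23 reads). The libraries within each genotype differed widely, and still the lower *Eef1g*-cKO value was above the higher control value. The log2 fold change was 3.45 (SE 0.67, adjusted p = 0.042 in limma), and 8 of 14 alternatives kept the adjusted call. Leaving out 1 library gave values from 2.67, without *Eef1g*-cKO replicate 1, to 4.23, without *Eef1g*-cKO replicate 2.

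*Klhl22* (chr16:17759621-17793382), an adaptor that acts on the mitotic kinase PLK1, had tightly grouped values. It measured 15.3 and 13.5 FPKM in control (99 and 49 reads), against 49.5 and 43.1 FPKM in *Eef1g*-cKO (29 and 46 reads). The log2 fold change was 1.62 (SE 0.25, adjusted p = 0.033 in limma), between 1.40 and 1.83 in the 14 alternatives, of which 9 kept the adjusted call.

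*Klhl7* (chr5:24100565-24163369), a CUL3 adaptor mutated in inherited retinal degeneration, measured 31.4 and 19.4 FPKM in control, against 82.1 and 62.9 in *Eef1g*-cKO. All values rested on at least 63 reads. The log2 fold change was 1.503 (SE 0.31) with an adjusted p of 0.047 in limma, close to the threshold, and 7 of 14 alternatives kept the adjusted call while all kept the unadjusted call.

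*Klhl21* (chr4:152008891-152017677) had the largest negative fold change of the tested members. It is a mitotic CUL3 adaptor for Aurora B, as are *Klhl9* and *Klhl13*. *Klhl21* had 150 and 119 reads in control (15.5 and 22.1 FPKM), against 2 and 1 in *Eef1g*-cKO (2.29 and 0.63 FPKM). The log2 fold change was -3.08 (SE 0.51, adjusted p = 0.035 in limma), and pooled reads gave a control to *Eef1g*-cKO ratio of 14.7 with a 95% exact binomial interval of 4.96 to 71.6 for counting error only.

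The other adaptors of Aurora B had different values. *Klhl13*, which is X-linked, measured 19.0 and 3.49 FPKM in control, against 36.8 and 50.8 in *Eef1g*-cKO, with no overlap but with control libraries far apart. Its log2 fold change of 2.22 (SE 0.70) had an adjusted p of 0.0995 in limma and was called by edgeR on reads. Without control replicate 1 it was 3.30 and without control replicate 2 it was 1.14. *Klhl9* was level at 20.4 and 16.8 FPKM against 16.9 and 19.2 (log2 fold change -0.04, or 0.18 after centring). Whether the 3 genes differed from each other was not tested.

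*Klhl11*, known as an autoantigen in neurological syndromes that accompany testicular germ cell tumours, was the most abundant Kelch-BTB gene. It measured 68.9 and 62.6 FPKM in control, against 80.7 and 104 in *Eef1g*-cKO, a log2 fold change of 0.47 (SE 0.23, adjusted p = 0.218 in limma). *Klhl2* and *Klhl36*, named after their values were seen, had 26 and 7 and 9 and 10 reads in control, against 0 in each *Eef1g*-cKO library, where their control means lay under the floor of 3 reads, so that no fold is given.

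With a control library left out, that genotype has 1 library, which is assumed to vary like the *Eef1g*-cKO pair, and the spread comes from that shallower pair alone. The fold changes stayed large: without control replicate 1 and 2 they were 2.11 and 1.76 for *Fbxo47*, -2.99 and -2.55 for *Cul7*, and -3.32 and -2.84 for *Klhl21*. No member was then called by adjusted p in limma. For the fits with 1 library left out, no share over all genes was worked out. The counts of called members in these fits are thus no result about the members against all genes. Each of the 7 genes kept its direction in every alternative that could test it.

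**Figure D4:**
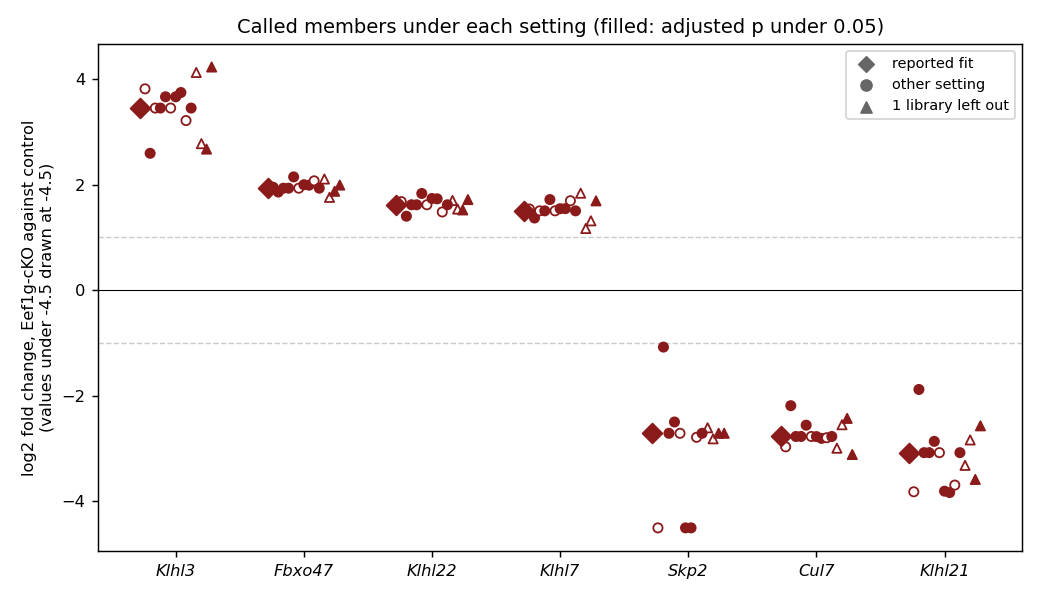
Log2 fold change of the 7 called members in the reported limma fit (diamond), under the other settings (circles) and with 1 library left out (triangles), filled where the adjusted p was under 0.05; values under -4.5, which occur for *Skp2* with 0 reads in *Eef1g*-cKO, are drawn at -4.5. No gene crosses 0, *Fbxo47* and *Klhl22* vary least, and the triangles of fits without a control library are all open.

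The other parts of these ligases, taken from lists by function, had 91 genes in the table and 87 tested. Of these, 1 rose and 2 fell by adjusted p (beside 2.87% and 4.97% of all genes), 3 were higher and 11 lower by unadjusted p in limma (beside 7.32% and 16.3%), and the median log2 fold change was -0.07. *Cops3*, a subunit of the COP9 signalosome that removes NEDD8 from cullins, measured 74.9 and 71.0 FPKM in control, against 237 and 185 in *Eef1g*-cKO (log2 fold change 1.51, adjusted p = 0.031 in limma). It was the only one of 10 COP9 signalosome genes to be called, and the catalytic subunit gene *Cops5* measured 49.4 and 36.6 FPKM against 69.3 and 39.5 (log2 fold change 0.29).

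Among 22 substrate receptors of CUL4 ligases, *Dcaf4* fell from 35.9 and 40.4 FPKM to 8.19 and 12.4 (log2 fold change -1.82, adjusted p = 0.035 in limma). *Ccnf*, which encodes cyclin F and lies outside the symbol rule although it is an F-box gene, fell from 39.4 and 57.3 FPKM to 15.9 and 6.33 (log2 fold change -2.13, adjusted p = 0.0497 in limma, at the threshold). None of the 16 tested receptors of CUL2 and CUL5 ligases, the 8 E2 and ARIH enzymes, the 10 NEDD8 pathway genes or the 8 core and linker genes was called by adjusted p. By unadjusted p in limma, 0 of these were higher (beside 7.32% of all genes), and 1, 2, 1 and 2 were lower (beside 16.3%). On reads, edgeR called 1 of 12 of these receptors and 1 of 7 core genes lower by adjusted p (beside 11.2% of all genes). It called 1 of 7 NEDD8 pathway genes higher (beside 8.75%). DESeq2 called 0 in these lists (beside 5.94% higher and 5.34% lower).

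In the core, *Nedd8* measured 310 and 422 FPKM in control, against 349 and 415 in *Eef1g*-cKO (log2 fold change 0.07). The CUL4 linker gene *Ddb1* was level as well, at 210 and 249 FPKM against 206 and 224 (log2 fold change -0.09). *Cand1*, which encodes the factor that exchanges adaptors on cullins, measured 49.0 and 56.8 FPKM against 70.7 and 63.0 (log2 fold change 0.33). The RING subunit gene *Rbx1* had 88 and 52 reads in control, against 4 and 1 in *Eef1g*-cKO, at 21.4 and 22.7 FPKM against 10.8 and 1.48, and its log2 fold change of -2.09 was not called by adjusted p (0.124 in limma).

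**Figure D5:**
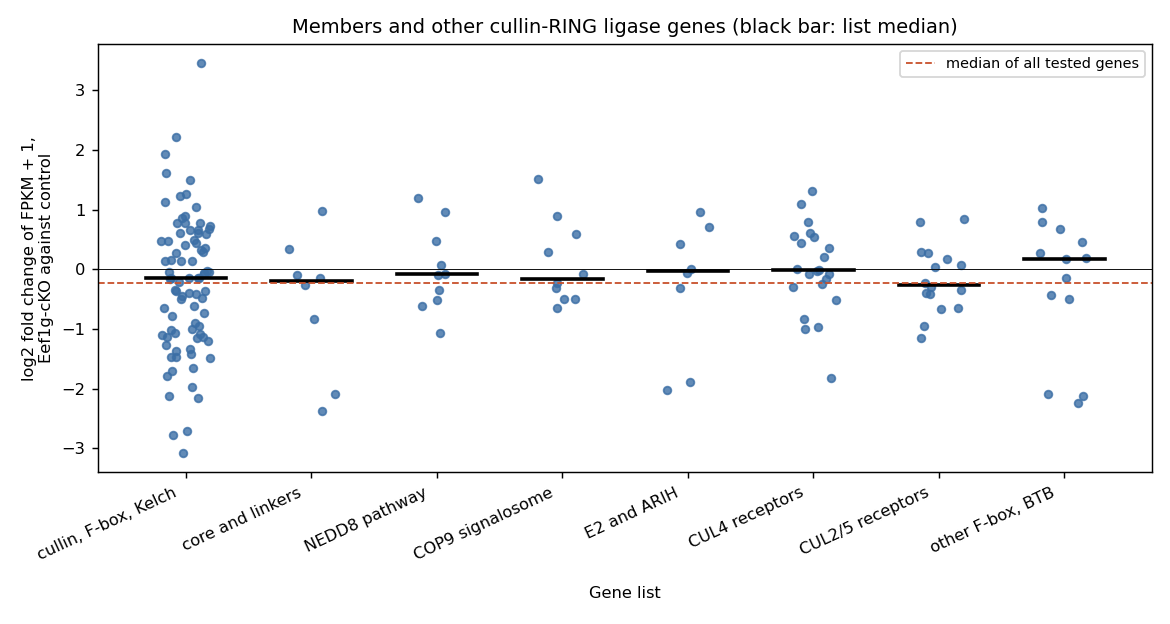
Log2 fold change of FPKM + 1, *Eef1g*-cKO against control, for the tested members and 7 lists of other cullin-RING ligase genes, 1 point a gene with a black bar at each list's median and a dashed line at the median of all tested genes (-0.23). List medians lie between -0.27 and 0.17, and single genes of each list spread to both sides.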

How the data were processed

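Ribo-seq was analysed for 2 control and 2 *Eef1g*-cKO libraries. Per the labels, fragments of sorted cells were made with RNase I and cycloheximide, and the submitters' processing notes name cutadapt, Bowtie, STAR, mm10 and hg38 without a role for each; the counter and its annotation are not given in the sources used here. The deposited table holds FPKM, which the authors computed per kilobase of gene length and 1000000 reads on genes, and a signal column for each library, the normalized counts that the authors made with 1 size factor a library. All of these signal values (100% within 0.001) were whole multiples of the step of 1 read, which gave back the reads. Genes in the table have at least 10 reads over the 4 libraries. The 6 columns of the authors' own comparison (mean, fold change, error, test score, p and adjusted p) were not used. Depth is that of the FPKM denominator. Intervals and the floor of 3 reads (95%) cover counting error only.

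Members and lists were chosen with earlier results of these data known. limma 3.58.1 (R 4.3.3; trended prior) was fitted to log2(FPKM + 1) of the 10475 genes whose mean reached 1 FPKM, p adjusted by Benjamini-Hochberg over all of them. This scale understates changes of low genes. An exact permutation test of 2 against 2 libraries cannot give less than p = 0.333 and was not used. Alternatives were edgeR 4.0.16 and DESeq2 1.42.0 on the recovered reads and the settings listed at the end, and the scripts were tested on simulated data. Named members were all cullins and *Skp* genes, those called by adjusted p, the 5 largest non-overlapping changes each way among F-box and Kelch-BTB genes of at least 5 FPKM, the 10 most abundant and 11 with known roles in meiosis, germ cells or the cell cycle; *Klhl10* of that last list was not analysed here. Symbols were matched to RefSeq GRCm38.p6 (89 by symbol, 2 by an older symbol), whose gene coordinates are given for orientation, since the table has none.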

Additional observations from a re-analysis of the deposited data

How the results depend on the processing

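Over 14 alternatives, 26 of the 31 named members never changed sign. The counts reported were 4 higher and 3 lower by adjusted p and 6 higher and 12 lower by unadjusted p. The adjusted counts became 1 and 0 with a pseudocount of 0.1 FPKM, where 6 and 12 passed the unadjusted p in limma, 0 and 0 with a prior variance without a trend (7 and 16 unadjusted in limma) and 0 and 0 with all libraries thinned to the smallest total (5 and 11 unadjusted in limma). Without a filter on low values 2 were higher. Lower by adjusted p were 8 in edgeR (beside 11.2% of all genes) and 6 in DESeq2 (beside 5.34%). The unadjusted count lower was 5 with a pseudocount of 5 FPKM, 7 at a minimum mean of 5 FPKM and 7 with centred libraries (beside 12.8%). For the pseudocounts, the filters, the prior variance without a trend and the thinned libraries, no share over all genes is given. The same holds for the fits with 1 library left out, whose counts come next. The counts of all these settings are thus no result about the members against all genes. Leaving out 1 library gave 0 to 5 higher and 0 to 14 lower by adjusted p in limma, 3 to 7 higher and 6 to 23 lower by unadjusted p, and a member median of -0.28 to -0.10. The median was -0.049 at a minimum mean of 5 FPKM, 0.064 with centred libraries and -0.057 in DESeq2. With the replicate number as a block, 5 of 84 members were higher and 5 lower by adjusted p in limma, with no share over all genes given. By unadjusted p, 6 and 14 were, beside 772 and 1825 of all 10475 genes tested. Differences between replicates 1 and 2 did not correlate between genotypes (r = -0.01 across genes). With a median of 5 and 8 reads per gene in *Eef1g*-cKO, counting error may hide a shared difference. Whether the replicate numbers pair the libraries thus cannot be told.

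Signs changed for *Fbxo36* (0.44 when thinned), *Fbxo38* (0.13 centred, 0.011 in edgeR, -0.22 to 0.061 leaving out 1 library), *Fbxo5* (0.068 centred, 0.15 thinned, -0.84 to 0.55 leaving out 1 library), *Fbxo7* (0.066 centred, 0.045 in edgeR, 0.014 in DESeq2, -0.54 to 0.25 leaving out 1 library) and *Klhl9* (0.18 centred, 0.041 in edgeR, 0.028 in DESeq2, -0.17 to 0.097 leaving out 1 library). The cause of these shifts was not tested. At 4 and 7 reads for the median member in *Eef1g*-cKO, depth limits which changes in scarce members could be detected.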
